A study of Mus musculus with 2 samples.

Results

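Mir137, Mir138-1, Mir138-2, Mir129-1 and Mir129-2 are microRNA genes whose products are known for their work at synapses. They were chosen by their GENCODE M21 symbols, and all 5 were found among the 2202 microRNA genes of the count tables. Sequencing covered RNAs shorter than 30 bases from the left cerebral cortex of 4-day-old female B6CASTF1/J mice, an F1 hybrid of C57BL/6 and castaneus parents, with no allele or treatment named. The design has 1 group of 2 biological replicates, with 1 library from each numbered animal (animal 04 as replicate 2, animal 03 as replicate 1) under a shared donor record. There is no second condition, so levels are described and no test between groups exists.

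A microRNA gene is transcribed as a longer RNA that folds into a hairpin, from which a 5p and a 3p product can be cut. The retained product guides Argonaute proteins to messenger RNAs through its seed, bases 2 to 8, and lowers their translation or stability. In neurons miR-137 is known to act on dendrite growth and on proteins of presynaptic vesicle release. miR-138 is found in dendrites and is known to limit spine size through the depalmitoylating enzyme Lypla1, and miR-129-5p is known for repressing the potassium channel Kcna1 and for its part in homeostatic synaptic downscaling.

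The mature products are shown first because they decide which reads can be told apart. RefSeq (GRCm38.p6, the same assembly as mm10) listed 9 mature entries for the 5 genes, which are 7 different sequences with 7 different seeds. Capitals mark the seed in each line, written 5′ to 3′.
miR-137-3p: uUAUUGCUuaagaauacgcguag
miR-137-5p: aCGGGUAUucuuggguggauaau
miR-138-5p: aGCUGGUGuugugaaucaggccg
miR-138-1-3p: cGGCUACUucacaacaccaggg
miR-138-2-3p: gCUAUUUCacgacaccagggu
miR-129-5p: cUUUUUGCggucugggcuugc
miR-129-2-3p: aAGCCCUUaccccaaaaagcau
None of the 7 seeds occurred in a differently named mature entry among the 1738 of the table. RefSeq listed no 3p product for Mir129-1, although its hairpin also holds the seed bases of miR-129-2-3p. Both miR-137 products lie in 1 hairpin only. miR-138-5p lies whole in the hairpins of Mir138-1 and Mir138-2, and miR-129-5p in those of Mir129-1 and Mir129-2, so that each 5p sequence has 2 possible sources.

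The hairpins of each pair show how far that sharing reaches. In the next 4 lines capitals mark the longest stretch that both copies hold, 24 bases in the Mir138 pair and 26 bases in the Mir129 pair.
Mir138-1: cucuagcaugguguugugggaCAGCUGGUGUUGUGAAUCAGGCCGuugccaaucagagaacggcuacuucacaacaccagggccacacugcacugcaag
Mir138-2: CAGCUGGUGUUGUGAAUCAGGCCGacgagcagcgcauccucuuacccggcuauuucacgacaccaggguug
Mir129-1: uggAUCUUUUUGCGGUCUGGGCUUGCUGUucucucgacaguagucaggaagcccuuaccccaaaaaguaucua
Mir129-2: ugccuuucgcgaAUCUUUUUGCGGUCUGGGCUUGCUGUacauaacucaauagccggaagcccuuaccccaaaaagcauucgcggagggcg
Outside that stretch the longest run in common was 9 bases for the Mir138 pair and 21 bases for the Mir129 pair. The 3p products separate the copies less sharply in the Mir129 pair. Counted from 1 at the 5′ end of miR-138-1-3p, its aligned place in the Mir138-2 hairpin differs by C7U and A13G. Counted in the same way on miR-129-2-3p, the Mir129-1 hairpin differs only by C20U, and the first 19 bases of that product are the same in both hairpins.

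**Figure D1:**
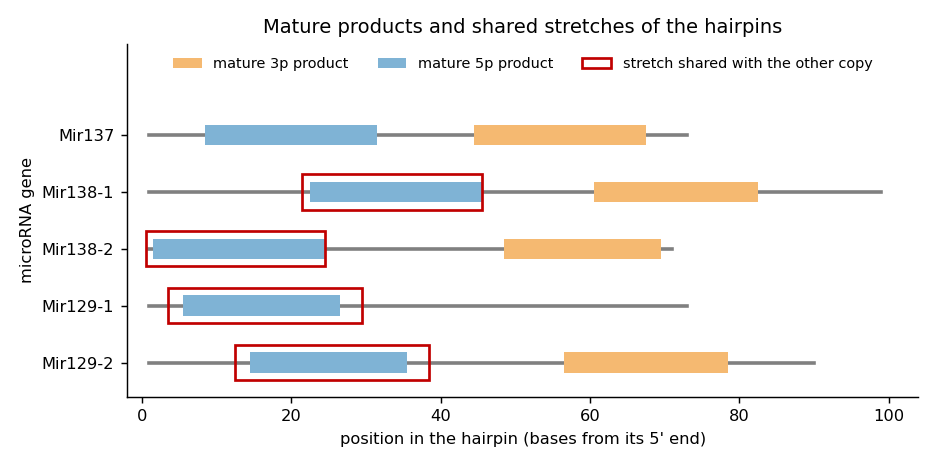
Hairpins of the 5 genes drawn to scale, with position in bases from the 5′ end on the x axis and 1 gene per row. Filled boxes are the mature products RefSeq lists and red outlines the stretch shared with the other copy, which covers the 5p product in all 4 paired hairpins and is absent from Mir137.

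Mir137 shared no window of 22 bases with any other of the 2202 annotated hairpins, on either strand, so all 52 of its windows were its own. Mir138-1 shared 3 of 78 windows and Mir138-2 3 of 50, each only with the other copy. Mir129-2 shared 5 of 69 windows with Mir129-1, with the overlapping Mir129b left out of its search. Mir129-1 shared 5 of 52 with Mir129-2 and with Mir129b, a gene annotated on the strand opposite Mir129-2. A window of 22 bases cannot show the further run of 21 bases common to the Mir129 pair. With windows of 18 bases, Mir129-2 shared 13 of 73 and Mir129-1 13 of 56, while Mir138-1 shared 7 of 82 and Mir138-2 7 of 54. These windows were searched among hairpins, and the rest of the genome was not searched.

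In the tables each read stands either in a gene or in 1 of the totals that name no gene. Reads mapped to several places form such a total, 45.8% of the 11686912 reads of replicate 1 and 41.0% of the 9938361 reads of replicate 2. A read that lies wholly inside a shared stretch matches both copies. How many reads of that total were miR-138-5p or miR-129-5p is not given in the tables. The counts of the 4 paired genes are therefore those of reads placed at 1 locus, not of the shared mature products. Mir137 shares no such stretch with another annotated hairpin. Which product of a hairpin a counted read came from is not recorded either.

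All 5 genes lie in or within noncoding transcripts on mm10. Mir137 (ENSMUSG00000065569.2) spans bases 118433857 to 118433929 of chromosome 3 (plus strand) and overlaps exons of 2 transcripts of the noncoding Gm26871. Mir138-1 (ENSMUSG00000065414.1) spans 122682876 to 122682974 of chromosome 9 (plus strand), inside an exon of Gm47135, a transcribed pseudogene. Mir138-2 (ENSMUSG00000065512.3) spans 94324311 to 94324381 of chromosome 8 (plus strand), inside the exon of the lincRNA C78859, between Nup93 and Slc12a3. Mir129-1 (ENSMUSG00000065469.1) spans 29022619 to 29022691 of chromosome 6 (plus strand), inside an exon of the lincRNA Gm3294. Mir129-2 (ENSMUSG00000065511.1) spans 94241364 to 94241453 of chromosome 2 (minus strand), inside an intron of Mir670hg, which also holds Mir670. So 4 of the 5 are exonic and 1 is intronic, and no member lies in a protein-coding gene.

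Levels are given as CPM, annotated-strand counts scaled to a common total over microRNA genes, with n = 2 libraries. Such a count covers the whole hairpin, as far as its reads were placed there. In the paired genes the listed 5p product lies wholly inside the shared stretch, so a read of just that product matches both copies. Mir137 had 51188 reads in replicate 1 and 37749 in replicate 2, which is 14397 CPM (95% exact Poisson interval 14273 to 14522) and 13672 CPM (13535 to 13811). It held 1.40% ± 0.0512 (SD) of all counted reads and ranked 16 and 17 among the 2202 genes. The libraries thus lay close together for this single-copy gene, and its mean of 14035 ± 512 CPM was at or above that of 96.4% of the 450 detected genes. Detection required at least 2 CPM in each library, which 20.4% of all genes reached. All 5 members did.

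Mir138-1 had 7661 reads in replicate 1 and 10579 in replicate 2, or 2155 CPM (2107 to 2204) and 3832 CPM (3759 to 3905). Its mean was 2993 ± 1186 CPM, and it ranked 78 in replicate 1 and 52 in replicate 2. Mir138-2 had 2447 and 3568 reads, or 688 CPM (661 to 716) and 1292 CPM (1250 to 1335), with a mean of 990 ± 427 CPM. Replicate 2 was the higher library for both copies. Summed over the pair, reads placed at Mir138 loci were 2843 CPM in replicate 1 and 5124 CPM in replicate 2, a quotient of 1.80.

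Mir129-2 had 1169 reads in replicate 1 and 772 in replicate 2, or 329 CPM (310 to 348) and 280 CPM (260 to 300), with a mean of 304 ± 34.8 CPM. Mir129-1 had 340 and 219 reads, or 95.6 CPM (85.7 to 106) and 79.3 CPM (69.2 to 90.5), with a mean of 87.5 ± 11.5 CPM. Here replicate 1 was the higher library for both copies. The mean of Mir129-1 was close to the median of 89.2 CPM over all detected genes, at percentile 49.6 of them, and the mean of Mir129-2 stood at percentile 64.2.

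**Figure D2:**
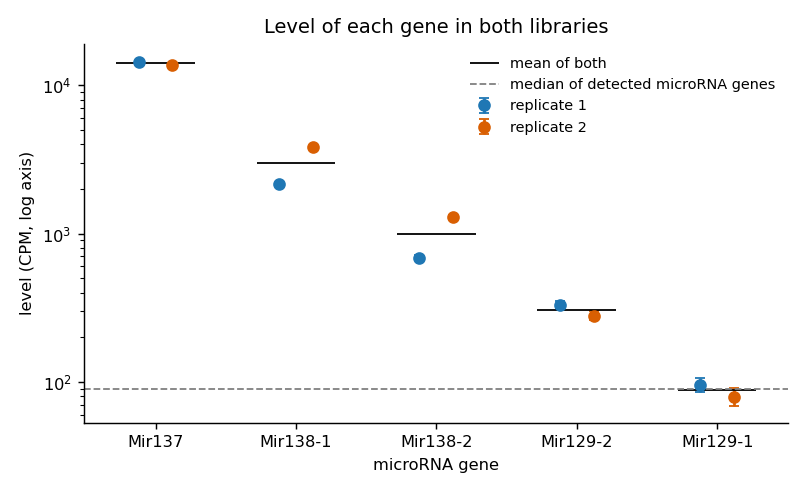
Level of each gene on the y axis (CPM, log axis), with 1 dot per library, its 95% exact Poisson interval (hidden by the dot where narrow) and a line at the mean. The level of Mir137 is near 14035 CPM in both libraries, and that of Mir129-1 lies at the dashed median of detected genes, 89.2 CPM.

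By mean level the order was Mir137, Mir138-1, Mir138-2, Mir129-2 and Mir129-1, and it was the same in each library. At each step the lower library of the higher gene exceeded the higher library of the next. Mir137 stood 6.68-fold above Mir138-1 in replicate 1 and 3.57-fold in replicate 2. Mir138-2 stood 2.09-fold above Mir129-2 in replicate 1 and 4.62-fold in replicate 2, the narrowest step in any library. A small RNA read spans a whole mature product, so CPM was not divided by length. Per 100 bases of hairpin the mean levels were 19225, 3023, 1395, 338 and 120 CPM in that same order. As families, by placed reads, Mir137 stood 5.06-fold above the Mir138 pair in replicate 1 and 2.67-fold in replicate 2. It stood 33.9-fold and 38.1-fold above the Mir129 pair. Both pairs lack reads that lay wholly inside a shared stretch, while Mir137 has no such stretch with another annotated hairpin. These folds, and those between single genes above, are therefore not folds between mature products.

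Within each pair 1 copy held about 3 in 4 of the placed reads. Mir138-1 held 75.8% (95% Wilson interval 74.9 to 76.6) of the reads of its pair in replicate 1 and 74.8% (74.1 to 75.5) in replicate 2. Mir129-2 held 77.5% (75.3 to 79.5) and 77.9% (75.2 to 80.4) of its pair. The split between copies therefore moved by -1.01 and 0.43 percentage points between the libraries, and the intervals of both libraries overlapped in each pair. These shares describe reads that could be placed, and the shared 5p products could not enter them where a read lay inside the shared stretch. Over the place of miR-129-2-3p the Mir129 copies differ only by C20U, and a read of its first 19 bases matches both hairpins. The Wilson intervals cover counting error only, not errors of placement.

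The change of the split between the libraries was set beside 14 other pairs of microRNA genes with exactly 2 numbered copies and 100 reads or more for each copy. The more abundant copy held between 51.8% (Mir24-1) and 99.1% (Mir181b-2) of the reads in those pairs, with a median of 74.9%. The log2 ratio of the copies changed between the libraries by 0.08 for Mir138 and 0.04 for Mir129. In the other pairs it changed by 0.01 to 1.12, with a median of 0.24. Of those 14 pairs, 2 (Mir181b and Mirlet7f) changed less than Mir138, and 1 (Mir181b) less than Mir129. These changes are point values without a counting interval, over pairs of 299 (Mir24) to 97156 (Mir128) summed reads, with 2500 for Mir129. Their order is therefore not a ranking of stability.

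**Figure D3:**
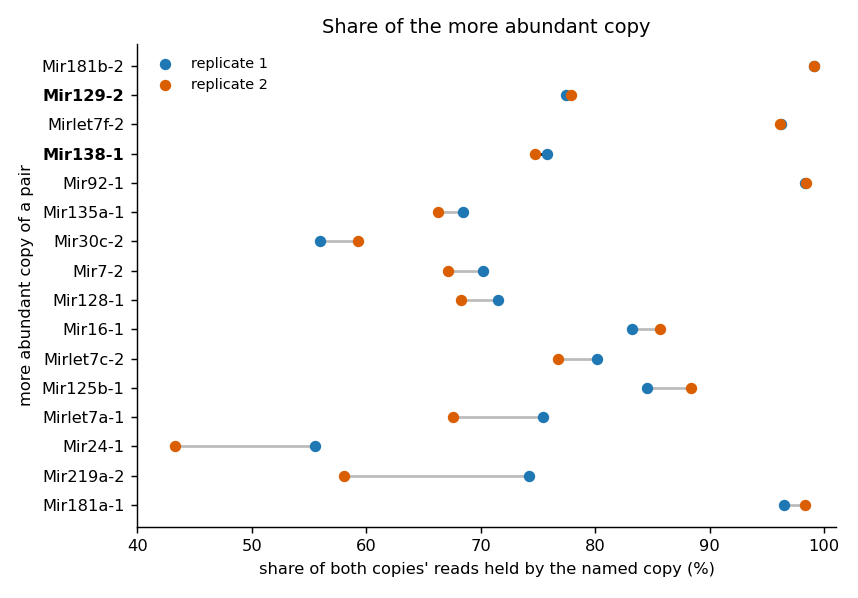
Share of a pair's reads held by its more abundant copy (x axis, %), 1 row per pair, with a dot for each library. Rows are ordered by the change of the copies' log2 ratio, smallest on top, and the bold rows Mir129-2 (77.5% and 77.9%) and Mir138-1 (75.8% and 74.8%) are the second and the fourth.

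Ratios between the libraries used counts scaled by TMM, a trimmed mean of log ratios over genes, and are log2 of replicate 2 over replicate 1, so values above 0 mean higher in replicate 2. Their 95% exact (Clopper-Pearson) intervals cover counting error only, and with 1 library per animal no difference has a replicate check. Mir138-1 had a log2 ratio of 0.81 (0.77 to 0.86) and was 1.76-fold higher in replicate 2. Mir138-2 had 0.89 (0.82 to 0.97) and was 1.86-fold higher. Mir137 had -0.09 (-0.11 to -0.07), Mir129-2 -0.25 (-0.38 to -0.12) and Mir129-1 -0.29 (-0.54 to -0.04). No member reached 2-fold, which 15.9% of the 308 genes with 100 reads or more over both libraries did.

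Copies of a pair thus had ratios of the same sign, as did those of 11 of the 14 other pairs, while the Mir138 pair and the other 3 members went in opposite directions. The Mir138 genes stood toward the upper end of the signed ratios of all 308 genes. Of these, 93.2% had a lower ratio than Mir138-1 and 94.2% a lower ratio than Mir138-2. By size in either direction, 79.9% had a smaller ratio than Mir138-1 and 82.1% a smaller one than Mir138-2. Mir137 lay at the middle, since 49.7% of genes had a lower ratio and the median of all genes was -0.09. The median size of the ratio over all 308 genes was 0.33, against 0.29 over the 5 members. For 3 members the counting interval lay wholly below 0, as for 44.5% of all 308 genes, and for 2 wholly above 0, as for 33.4%.

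**Figure D4:**
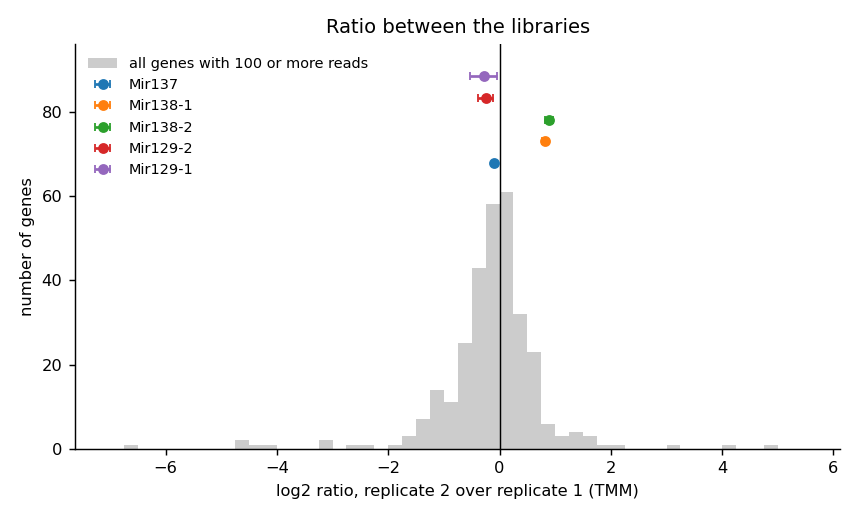
Histogram of the log2 ratio of replicate 2 over replicate 1 (x axis) for 308 genes with 100 reads or more, with the number of genes on the y axis. Dots above it are the 5 members with 95% counting intervals, at arbitrary heights, and both Mir138 copies lie at 0.81 and 0.89 while the others lie between -0.29 and -0.09.

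Some of the microRNAs that mark other cells also differed between these libraries, while others differed little. Red cell microRNAs summed to 60.2 CPM in replicate 1 and 550 in replicate 2, a sum carried by Mir451a with 16.9 and 491 CPM. Mir144 had 6.47 and 28.6 CPM, while Mir486 had 36.8 and 30.4 CPM. Endothelial and mural ones summed to 16319 and 23815 CPM, mostly Mir126a with 12842 and 19723 CPM and Mir143 with 3337 and 3994, while Mir145a had 140 and 97.8 CPM. Both sums, and 2 of 3 members of each list, were higher in replicate 2, while 44.5% of the 308 genes had a ratio above 0. Epithelial and sensory ones summed to 2388 and 157 CPM, and those of choroid plexus and ciliated cells to 5222 and 2793 CPM. Detected members were 3 of 3, 3 of 3, 6 of 8 and 5 of 5 in these lists, beside 20.4% of all genes. Those of microglia and leukocytes (5 of 5 detected) summed to 1104 and 1185 CPM, with 3 members higher in replicate 2 and 2, Mir150 and Mir223, higher in replicate 1. Those of the oligodendrocyte lineage (3 of 3) summed to 913 and 613 CPM, while its member Mir219a-1 had 45.8 and 73.2 CPM. Liver Mir122 had 63.3 and 78.6 CPM. In the muscle list Mir1a-1, Mir1a-2, Mir133a-1 and Mir133a-2 had no placed read, and Mir206 had 35.2 and 14.1 CPM. Like Mir138, the red cell, endothelial and mural, and microglia and leukocyte sums and Mir122 were higher in replicate 2. The epithelial and sensory, choroid plexus and ciliated, oligodendrocyte and muscle sums were lower there. The part of these cells in the Mir138 ratio was not tested. In tissue, fewer cells of a type and less RNA per cell cannot be told apart.

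**Figure D5:**
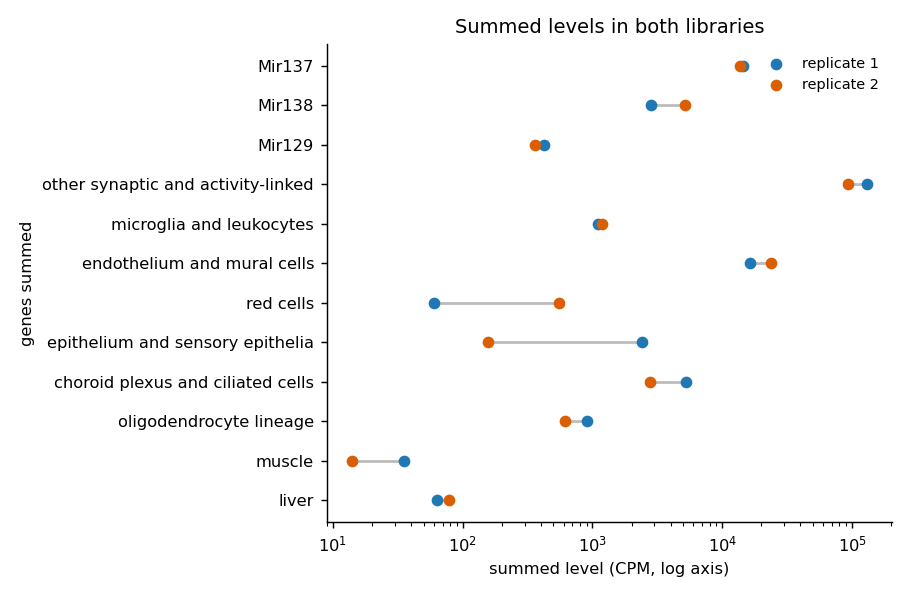
Summed level in CPM (x axis, log axis) of the Mir137, Mir138 and Mir129 genes and of each marker list, with a dot for each library. Red cell and epithelial lists differ most between the libraries, at 60.2 and 550 CPM and at 2388 and 157 CPM, while Mir137 differs little.

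The same comparison was made for 34 other microRNAs linked to synapses or neuronal activity. Of these 30 were detected, beside 20.4% of all genes, and none of the 34 lacked reads in both libraries. Together they held 13.0% of counted reads in replicate 1 and 9.36% in replicate 2. Of the 34, 16 share a window of 22 bases with a hairpin elsewhere, so the limit on placed reads holds for them too, and ranks within the list are ranks by placed reads. Only Mir139 and Mir149, the leaders of that list with 23650 ± 6626 and 20893 ± 1462 CPM, had more placed reads per library than Mir137. Mir138-1 had 10 of the 34 above it, Mir138-2 14, Mir129-2 18 and Mir129-1 25. The median level of its 30 detected genes was 774 CPM, against 990 CPM over the 5 members, all detected, and 89.2 CPM over all detected genes.

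Among the 29 genes of that list with 100 reads or more, 23 had a ratio below 0 and 6 above 0, with a median of -0.19. Of all 308 genes 171 (55.5%) had a ratio below 0, with a median of -0.09. In that list 4 genes were 2-fold or more higher in replicate 1, a level that 11.0% of all 308 genes reached, and 1 was so in replicate 2, against 4.87% of all. The activity-induced Mir132 had 5271 CPM in replicate 1 and 2903 CPM in replicate 2, and its neighbour Mir212 had 78.8 and 70.3 CPM. The dendritic Mir134, known to restrain spine growth through Limk1, had 1456 and 2084 CPM and was 1.41-fold higher in replicate 2. Mir128-1, known to dampen neuronal excitability, had 14073 and 6719 CPM. Replicate 2 was thus the higher library for Mir134, 1 of the 6 genes above 0, as for Mir138. It was the lower for Mir132 and Mir128-1, and also for Mir329 (293 and 155 CPM) and Mir381 (904 and 645). Mir485 differed by only 1.03-fold (1277 and 1254 CPM). Mir124a-1 had 5 and 10 placed reads, and shares sequence with Mir124a-2 and Mir124a-3, so this is no level of the mature miR-124.

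Likeness to single genes was measured as the distance of log2(CPM + 1) over both libraries, a description over 2 points that also follows abundance. Nearest to Mir137 were Mir652 (distance 0.35), Mir382 (0.50) and Mir770 (0.54). Nearest to Mir138-1 were Mir23a (0.28), Mir760 (0.28) and Mir30e (0.44), and nearest to Mir138-2 were Mir16-1 (0.06), Mirlet7c-1 (0.34) and Mir130b (0.45). Mir16-1 had 676 CPM in replicate 1 and 1337 in replicate 2, beside 688 and 1292 for Mir138-2. Nearest to Mir129-2 were Mir1306 (0.22), Mir325 (0.23) and Mir186 (0.26), and nearest to Mir129-1 were Mir1198 (0.10), Mir467c (0.19) and Mir148a (0.23). No member was among the 3 nearest genes of another.

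Neighbouring microRNA genes had fewer reads than the member they lie beside. Gm24155, 792 bases downstream of Mir137 on the same strand, had 0 reads in replicate 1 and 1 in replicate 2. A count of 0 allows up to 0.844 CPM in replicate 1. Mir670, 19847 bases from Mir129-2 within the same host, had 113 reads (31.8 CPM) and 99 reads (35.9 CPM). Mir129b, on chromosome 2 from 94241378 to 94241442 on the plus strand opposite Mir129-2, had 3 and 1 reads on its own strand.

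The overlap with Mir129b makes Mir129-2 the member whose value turns on the strand. Of the 1169 and 772 reads on the annotated strand of Mir129-2, all but 3 and 5 fall in the opposite-strand count of Mir129b, 1166 and 767. In the column that ignores strand, Mir129-2 kept 3 and 5 reads. The other 4 members had the same count in that column as on the annotated strand, and no read on the opposite strand.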

How the data were processed

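The authors deposited 1 table of raw read counts per library, per the labels and file notes on mm10 with GENCODE M21. The aligner, counter, trimming and filters are not given in the sources used here, and the effect of castaneus variants on mapping was not tested. The 3 unnamed value columns were read as counts on either, the annotated and the opposite strand, from their layout and values. The annotated strand was used.

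All 2202 IDs matched M21. Library sizes excluded the totals without a gene and were 3555469 and 2761003 reads (1 CPM is 3.56 and 2.76 reads), or 30.4% and 27.8% of all reads. CPM, means with SD, exact intervals and shares were computed with Python 3.11.15 and scipy 1.17.1. Ratios used TMM factors from edgeR 4.0.16 with 0.5 added to each count, and size factors (RLE) from DESeq2 1.42.0 as an alternative. The ratio step was run on simulated Poisson counts with known fold changes. Those counts hold no spread between animals, so the run could check the computation only. Amplified reads are not independent molecules, so the intervals reflect counting alone, and the SD may hold technical spread. Other alternatives were the strand, the detection minimum, the count added, the minimum summed count and leaving out a replicate. Named genes were all members, their 3 nearest genes, the synaptic list and annotated neighbours, while the other two-copy pairs were added after seeing the data. The members and lists were chosen with earlier results of these data known.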

Additional observations from a re-analysis of the deposited data

Results flagged for a closer look

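The opposite-strand column, which no level used, held reads at Mir129b in both libraries, 1166 in replicate 1 and 767 in replicate 2. A count of 0 would allow 3. Mir129-2 lies on that other strand and overlaps Mir129b from 94241378 to 94241442 on chromosome 2. With groups of 2 libraries no check for a sample far from the others was possible.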

How the results depend on the processing

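Leaving out a replicate, or lowering the detection minimum, could not change a result by the way it was computed, so these 18 alternative values say nothing of stability. Of the other 57, 50 kept their direction and stayed within the spread, the counting interval or, for counts, 1.5 times the main count. Some of these had little room to move. The strand left the counts of 4 members unchanged, and 0.1 or 2 added was small beside every member's count. Ignoring strand moved the level of Mir129-2 from 304 to 1.42 CPM, its share of the pair from 77.7% to 1.55%, and turned its log2 ratio from -0.25 to 1.00, all on 3 and 5 reads outside Mir129b. It also moved Mir137 from 14035 to 14958 CPM, because the library total is smaller there. All 5 members were detected at 5 CPM, and 4 when strand was ignored. Ratios of the other 4 members stayed within their counting intervals under library size alone, RLE factors, either strand and 0.1 or 2 added. The 34 genes at 2-fold or more higher in replicate 1 became 146 with no minimum count, and the 15 higher in replicate 2 became 37 at a summed count of 20 and 165 with no minimum. Length scaling was added after seeing the data. No paired analysis was possible because there is 1 group. Depth limits Mir129-1 most, whose 219 reads in replicate 2 gave 69.2 to 90.5 CPM.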

Other observations

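Among the other synaptic and activity-linked microRNAs, the largest ratios between the libraries, chosen after their values were seen, went in opposite directions. Mir22 had 10079 CPM in replicate 1 and 2597 CPM in replicate 2 and was 3.93-fold higher in replicate 1. Mir153 had 70.3 and 211 CPM and was 2.96-fold higher in replicate 2. Mir181a-2 was 2.36-fold and Mir128-1 2.12-fold higher in replicate 1, while Mir383 and Mir135a-1 differed by 1.02-fold each.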
